A study of Mus musculus with 7 samples.

Results

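The uninduced state of A2Lox mouse embryonic stem (ES) cells was described from 2 H3K27ac ChIP-seq libraries, R1 and R2, out of 6 H3K27ac libraries and 7 samples in all. These are the libraries labelled uninduced at 0 h, and they were chosen by that label alone. The line carries the coding sequence of mouse NeuroD1 with an HA tag behind a doxycycline-inducible promoter, and the 0 h cells received no doxycycline. The cells had been grown on feeder fibroblasts with LIF and then taken through feeder-free passages on gelatin. The labels number R1 and R2 but do not say whether they were separate cultures. The regions are 66841 peaks that the authors merged over all samples and time points, so a peak can owe its place in the set to an induced library. At 0 h 66804 of them held at least 1 read. R1 had 6797811 reads in merged peaks and R2 had 6572611, with a median of 29 and 27 reads per peak. Levels are given in RPM, the reads of a peak divided by the library's total in merged peaks and scaled to a common total, averaged over R1 and R2, and densities as RPM per kb of peak width. No sample group is compared here, so the values are described without tests.

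Acetylation of lysine 27 of histone H3 is laid down by the acetyltransferases p300 and CBP and is found on nucleosomes beside active promoters and enhancers. Repressed genes in ES cells can carry methylation on the same residue, which the Polycomb enzyme Ezh2 adds. ES cells are known for broad acetylated regions around genes of the pluripotency network, which is built on Pou5f1 (OCT4), Sox2, Nanog and Esrrb. ChIP-seq counts DNA from many cells, and more cells with the mark cannot be told apart from more of the mark per cell.

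One of the strongest loci encodes microRNAs. The peak at chr7:3198319-3221920 (mm10) spans 23.6 kb and covers the cluster from Mir290a to Mir295, the main microRNA cluster of ES cells. It had 5303 reads in R1 and 5046 in R2, that is 774 RPM ± 8.75 (SD, n = 2), and was the sixth of all peaks. Its nearest protein-coding start site belongs to Nlrp12, an innate immune receptor gene, 39.5 kb from the peak centre. The RefSeq table for GRCm38 gave 17 mature microRNAs inside the peak. They are shown because 5 of them share the letters AAGUGC in the seed (bases 2 to 8, in capitals), the part of a microRNA that pairs with its targets:
mmu-miR-291a-3p: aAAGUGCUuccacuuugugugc
mmu-miR-294-3p: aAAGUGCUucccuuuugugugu
mmu-miR-295-3p: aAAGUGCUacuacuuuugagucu
mmu-miR-290a-3p: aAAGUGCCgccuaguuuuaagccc
mmu-miR-291b-3p: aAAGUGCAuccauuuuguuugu
The first 3 of these have the same seed in full. The 5′ arms of the cluster carry other seeds, and CUCAAAC is shared by 3 of them, from the hairpins of Mir290a, Mir292 and Mir293:
mmu-miR-290a-5p: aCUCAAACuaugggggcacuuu
mmu-miR-292a-5p: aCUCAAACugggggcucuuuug
mmu-miR-293-5p: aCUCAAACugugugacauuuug
The Mir302 cluster, which encodes microRNAs of a related kind at chr3:127545228-127545807, lay in a far weaker peak (chr3:127544801-127546472) with 82 and 42 reads. Its density was 5.52 RPM per kb, against 32.8 at the Mir290 peak.

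The central 200 bases of a dense promoter peak and an unread intergenic peak are shown as examples (mm10, plus strand, CpG dinucleotides in capitals). The first is from the peak over the promoter of Brd2, a reader of acetylated histones, which was the densest promoter peak over 2 kb wide in mostly single-copy sequence (2610 and 3055 reads). This stretch, chr17:34120817-34121016, holds 21 CpGs:
Brd2: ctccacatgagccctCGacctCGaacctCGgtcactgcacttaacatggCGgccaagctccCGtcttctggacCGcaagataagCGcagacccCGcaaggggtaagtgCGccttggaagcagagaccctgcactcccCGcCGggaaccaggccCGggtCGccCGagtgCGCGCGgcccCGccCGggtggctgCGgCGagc
The second is from a peak without a read in either library near Insm1, a zinc finger gene of neuroendocrine cells, at chr2:146226208-146226407, with 4 CpGs:
Insm1: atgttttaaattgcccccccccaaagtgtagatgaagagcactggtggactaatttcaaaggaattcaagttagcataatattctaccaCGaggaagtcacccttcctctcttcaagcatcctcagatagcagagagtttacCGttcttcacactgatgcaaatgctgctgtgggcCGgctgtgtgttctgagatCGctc
The Brd2 stretch is 69% G and C and the Insm1 stretch 46%. The central 200 bases of the densest peak of all, near Ly6c2, hold 1 CpG and are 37% G and C. The pair above thus shows no general trend with density.

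Reads were concentrated in few peaks. The strongest 10% of peaks (6684) held 57.8% of the reads and the strongest 1% (668) held 16.65%. The weaker 50% of the set held 6.60%. Counted from the strongest peak down, 50% of the reads lay in 4866 peaks (7.28%). The median peak had 4.197 RPM (quartiles 1.81 and 13.4) and a density of 6.60 RPM per kb (4.56 and 10.1).

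The very strongest peaks did not lie at genes known for ES cells. The first 2 were at chrX:169997403-170011658, over Gm21887 and the end of Mid1, with 18585 and 18598 reads, and at chrY:90771700-90786611, over Gm47283, with 16501 and 16358. A second peak over Mid1 (chrX:169990776-169996201) was the eighth, with 5183 and 4904 reads. The part of the X that it shares with the Y begins within Mid1 in the mouse. In these 3 peaks between 0.806% and 13.0% of sampled 31-base words occurred once in the GRCm38 primary assembly, so the reads there cannot be assigned to 1 copy. The third peak was the 1.43 kb peak near Ly6c2, 25.6 kb from its start site, with 10434 and 9762 reads (chr15:75085392-75086817), and 62.9% of its words occurred once. The fourth lay on an unplaced contig, with no gene assigned to it, and had 8907 and 7949 reads.

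From the fifth peak on the list turned to long peaks, several of them at genes known from ES cells. A 27.8 kb peak in an intron of Rbpms, an RNA-binding protein gene, had 5554 and 4980 reads (chr8:33896629-33924465). Then came the Mir290 peak and a 33.3 kb peak over the promoter of Prrc2b (5242 and 5044 reads). Junb and Ier2, both early response genes, followed with 4723 and 4965 reads (a peak shared with Hook2) and with 4688 and 4665. Among peaks in which at least 50% of words occurred once, the next were at Cdh1 (E-cadherin, 4712 and 4406 reads), 33 kb from the start site of Sall1 (a zinc finger factor of ES cells, 4711 and 4338), near P4ha2, at Tet1 (an enzyme that oxidises methylcytosine, 4492 and 4317), near Epha2, at Ctbp2 with Fgfr2, at Mcl1 (an antiapoptotic gene), near Nanos3 and at Esrrb (3754 and 3709). R1 and R2 lay close together at each, and the largest SD among these 15 peaks was 46.2 RPM, at the Nanos3 peak with its mean of 578 RPM.

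**Figure D1:**
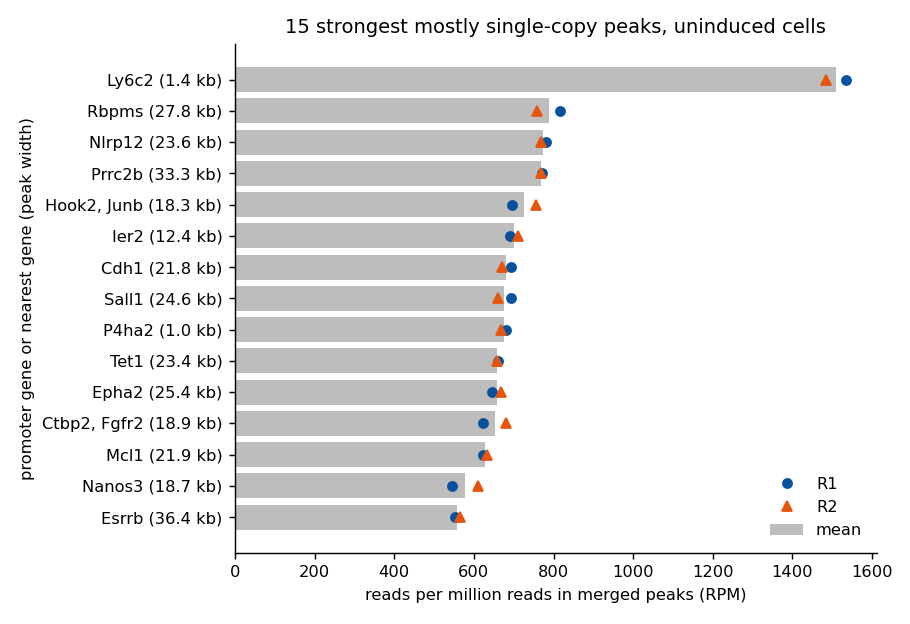
Level of the 15 strongest peaks in mostly single-copy sequence (x axis, RPM), with bars for the mean and points for R1 and R2, named by promoter gene or else nearest gene and by width on the y axis. Most are over 10 kb wide and between 558 and 787 RPM, and the peak near Ly6c2 stands apart at 1510 RPM in 1.43 kb.

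Ranked per kb, the list was another one. Only 16 of the 100 strongest peaks were also among the 100 densest, while 60 were among the 100 widest. The peak near Ly6c2 led with 1059 RPM per kb (1076 in R1 and 1042 in R2), against a median of 6.60. It was followed by a 952 bp peak 39.4 kb from P4ha2 (chr11:54139890-54140841) with 709 and a 303 bp peak 53.6 kb from Polr3k (chr2:181917802-181918104) with 524. Then came the contig peak with 473 and a 379 bp peak in an intron of Fbxw4 (chr19:45649862-45650240) with 401. The other peaks of the first 10 had between 307 and 391 RPM per kb. The nearest start sites were those of Vmn1r238 for 2 neighbours (117.8 and 118.6 kb away), of Olfr161 (474.6 kb) and of Cr2 (65.0 kb), and 1 peak lay in an intron of E030030I06Rik. None of the first 10 overlapped a protein-coding promoter. Of the 100 densest peaks 37 were multi-copy (under 50% of words occurring once) or on contigs, against 7 of the 100 strongest and 2 of the 100 widest. The Input library has no column in the count table, so whether these short loci are dense without the antibody too was not tested.

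Among promoter peaks in mostly single-copy sequence, a 639 bp peak at Aida and Brox (277 RPM per kb) and a 1.21 kb peak at Sfi1 (135) came first. Below them densities changed little from peak to peak: Brd2 had 67.3 RPM per kb, Arhgap35 65.1, Ywhaz 60.8, Ctcf with Agrp 59.2 and Eif5a 58.2. Ctcf encodes the main insulator protein and Eif5a a translation factor. Ier2 (56.5) and the promoter of Sall1 (56.4) were next, and Irf2bp2, Nsd1, Ubtf, Taok1, Cnot1 and Map1s lay between 54.4 and 56.3. At Brd2 R1 gave 60.9 and R2 73.7 RPM per kb. At Ywhaz the values were 54.4 and 67.2. From Brd2 to Map1s R2 was the higher at each peak, and the range between R1 and R2 overlapped that of the next. Within each library Brd2 lay above Arhgap35 (57.9 and 72.3), and Arhgap35 above Ywhaz. Ctcf with Agrp (57.4 and 61.0) lay above Ywhaz in R1 and below it in R2. Whether neighbours in this order differ was not tested.

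The widest peak, 36.4 kb, covered the promoter of Esrrb, an orphan nuclear receptor of naive ES cells (chr12:86463322-86499711), and had 558 RPM but only 15.3 RPM per kb. Prrc2b (33.3 kb, 23.1 RPM per kb), Macf1 (29.1 kb, 15.03) and Rbpms (27.8 kb, 28.3) followed. Then came a peak near Mkrn1 (25.9 kb, 18.9), one near Epha2 (25.4 kb, 25.9), one in Ldlrad3 (25.3 kb, 10.4) and the peak 33 kb from Sall1 (24.6 kb, 27.5). The Mir290 peak and Tet1 (23.4 kb, 28.1) completed the first 10. Across all peaks width and level had a Spearman rho of 0.908, and width and density 0.631. These are descriptions across peaks whose widths were set by merging over all time points.

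**Figure D2:**
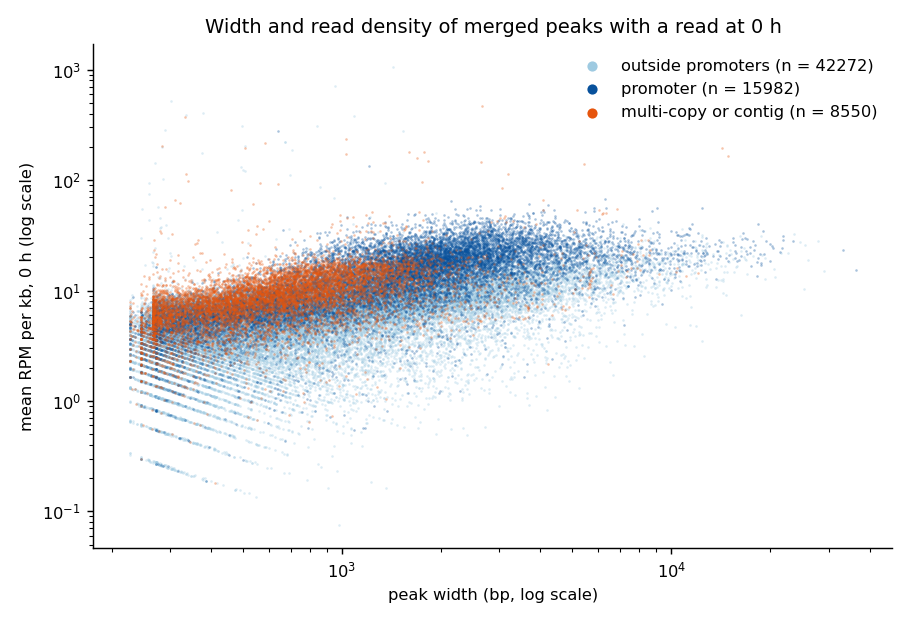
Density at 0 h (y axis, RPM per kb, log scale) against peak width (x axis, bp, log scale) for peaks with a read, in mostly single-copy promoter peaks, other mostly single-copy peaks and peaks that are multi-copy or on contigs. Density and width rise together (Spearman rho 0.631 over all peaks), and most densities above 100 RPM per kb are at the left, in narrow peaks. The parallel lines at the lower left are peaks with few whole reads.

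Peaks that overlapped 2 kb either side of a protein-coding start site made up 16416 of the 66841 (24.6%) and held 52.2% of the reads in R1 and 53.7% in R2. Their median width was 1306 bp and their median density 11.8 RPM per kb. Intron peaks (18342) held 13.0% of the reads at a median of 5.65 RPM per kb, and intergenic peaks (22063) held 20.01% at 6.12. Peaks over exons outside promoters had 6.39 RPM per kb, and peaks at noncoding start sites 6.69. Of the strongest 10% by density, 5341 were promoter peaks. Outside promoters, the strongest after the loci given above was a 16.2 kb peak 21.1 kb from Stoml1 (chr9:58266137-58282330), with 502 RPM. The 10 strongest there were nearest to Ly6c2, Rbpms, Nlrp12 (the Mir290 cluster), Mid1, Sall1, P4ha2, Epha2, Nanos3 and Stoml1, with the contig peak as the only one without a gene.

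Joining peaks at most 10 kb apart gave 27217 domains, of which 15165 were single peaks. The strongest 94 domains held 10% of the reads, and 149 did when peaks were joined at 3000 bp. After the ends of the Y (4752 RPM) and the X (4073 RPM), the strongest was a 201 kb domain of 50 peaks at chr8:70500808-70701780 with Jund, Gdf15 and Fkbp8, which had 13726 and 14245 reads. A domain with Junb, Prdx2 and Asna1 at chr8:84936836-85083717 had 12616 and 12878 reads in 31 peaks. The domain of Wasf2, Ahdc1 and Fgr (chr4:132938573-133135617) joined 61 peaks, more than any other, and had 12285 and 12325 reads. The Sall1 domain (chr8:88972323-89075182) held 1 protein-coding gene and 26 peaks and had 11734 and 11214 reads. The contig (1611 RPM) and the peak near Ly6c2 (1510 RPM) came next, and the domains of Lmna with Arhgef2 (1506 RPM) and of Ptma (1506 RPM) closed the first 10. Domains of Tgif1, Klf2, Trim71 and Cdkn1a were among the first 20, and 18 of the first 20 were shared by R1 and R2.

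The label of the cells was checked on markers. The 8 ES markers summed to 2052 RPM in R1 and 2093 in R2 over their promoter peaks. Of the 8, 7 had such a peak, against 60.2% of all protein-coding genes. Of 8 feeder fibroblast markers, 2 had one (Col1a1 and Lum), with 33 and 38 reads in all, and Col1a2, Col3a1, Thy1, Prrx1, Postn and Dcn had none. In a longer list of 20 fibroblast genes 10 had one, and the highest were Fn1 (708 and 679 reads), Vim (192 and 134) and Loxl1 (115 and 99). Of 8 neuron markers, 4 had one, with 272 and 270 reads in all. Neurod2, Neurod6, Dcx and Tbr1 had none, and Tubb3 had the most (161 and 158 reads). The neuron count and the 10 of 20 fibroblast genes lie near the share over all genes, so these counts do not tell cell types apart. A gene without a promoter peak was not called there in any library of the series, and its reads are not in the table.

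The pluripotency factors were strong through width more than through density. Of the 20 genes of that list 19 had a promoter peak, against 60.2% of all 21827 protein-coding genes, and 13 of the 19 were in the top 10% of genes with a promoter peak (1314 genes, 10% by construction). Their median promoter level was 281.5 RPM, against 31.2 RPM for all genes with a peak. Per kb the medians were 20.25 and 15.2 RPM. The promoter peaks of a member summed to a median of 9912 bp, and those of all genes to 1957 bp. Levels were highest at Tet1 (672 RPM, 26.1 per kb), Esrrb (558 RPM, 15.3 per kb), Klf2 (544 RPM, 33.0 per kb) and the Sall1 promoter (511 RPM, 56.4 per kb). Pou5f1, which encodes OCT4, had 3122 and 3104 reads in a single peak of 17955 bp (chr17:35494081-35512035), or 25.9 RPM per kb. Sox2 had 34.9 RPM per kb (2296 and 2361 reads) and Nanog 21.55 (1940 and 1759 reads). The lowest members were Nr0b1, with 80 and 85 reads, and Tfcp2l1, with 104 and 96. This and the other gene lists were chosen with earlier results of these data known. Their shares in the top 10% thus describe the lists and test nothing.

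Peaks outside promoters were tabulated for the 8 ES markers. The 3 markers with no promoter peak, or with a promoter level outside the top 10% of genes, had stronger peaks further away. Klf4, a Krüppel-like factor used in reprogramming, had 315 and 360 promoter reads, but a peak 56.5 kb from its start site (chr4:55469611-55482425) had 1899 and 1878. Tfcp2l1, a factor of naive ES cells, had 1507 and 1496 reads in a peak 18.8 kb away (chr1:118640405-118653072). Prdm14, a repressor of differentiation, had no promoter peak, and 18 other peaks with Prdm14 as the nearest gene held 2271 and 2043 reads. The largest of these, 31.9 kb away, had 690 and 636. At Sox2 the strongest of the 40 peaks outside its promoter lay 110 kb away (chr3:34752794-34767551), with 2522 and 2577 reads. That is more reads than in the promoter peak itself, which is narrower (9991 bp), and they were not compared per kb. A distal control region of Sox2 is known downstream of the gene. Over the 8 markers such peaks outside promoters summed to 2623 and 2634 RPM, against 46.9 and 44.9 RPM for the 8 fibroblast markers and 101 and 96.5 RPM for the 8 neuron markers. Nearest-gene assignment does not show which gene a peak acts on.

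The promoter of Nanog, a homeobox factor, is shown because it holds a match to a joined SOX-octamer motif. The pattern was a looser one than the separate SOX and octamer letters searched in peaks, with some positions open to any base, and was searched on both strands. It occurred in 0.00609% of 32851 RefSeq promoters of 300 bases (250 before to 50 after a start site), which are the 2 listed for Nanog. In the promoter at chr6:122707315-122707614 (GRCm38, plus strand) the match, on the minus strand, is in capitals:
Nanog: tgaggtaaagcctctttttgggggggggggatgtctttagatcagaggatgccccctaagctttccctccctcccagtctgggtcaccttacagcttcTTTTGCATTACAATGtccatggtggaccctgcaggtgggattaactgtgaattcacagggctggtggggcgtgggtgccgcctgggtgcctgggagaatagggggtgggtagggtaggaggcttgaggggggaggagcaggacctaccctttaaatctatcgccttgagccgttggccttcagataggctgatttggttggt
It holds 4 CpGs, against a median of 7 over all promoters. The peak over it (chr6:122700804-122713635) is 12832 bp wide. In the promoter of Pou5f1 at chr17:35505782-35506081 (plus strand) the match in capitals is to the SP motif GGGGCGGGG, which 11.4% of promoters hold on either strand:
Pou5f1: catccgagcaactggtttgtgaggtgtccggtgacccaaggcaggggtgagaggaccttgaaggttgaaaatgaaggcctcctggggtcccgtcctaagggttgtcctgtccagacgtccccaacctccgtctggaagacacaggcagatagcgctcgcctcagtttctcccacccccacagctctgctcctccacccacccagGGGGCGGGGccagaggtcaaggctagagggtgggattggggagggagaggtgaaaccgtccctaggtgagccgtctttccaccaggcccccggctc
The joined motif was in 23 of 58291 mostly single-copy peaks and in 1 of the 100 strongest of them. Over whole peaks outside promoters it occurred 0.437 times per Mb, against 0.160 over the genome. It did not rise with density there, with 0.418 per Mb in the weakest decile (1 match) and 0.296 in the strongest (4 matches). The separate SOX motif occurred 157 times per Mb there, against 210 over the genome. A match is only a match of letters.

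Other stem cell genes were high too, and genes of the LIF and BMP pathways were lower. All 21 genes of a list of further stem cell genes had a promoter peak, and 14 were in the top 10% of genes. Their median was 192 RPM. Cdh1 (682 RPM), Tdgf1, a co-receptor of Nodal (497 RPM), Dppa5a (478 RPM) and Trim71 (384 RPM) led, and Dppa3 (23.9 RPM) and Alpl (15.6 RPM) were lowest. The 13 genes of the LIF and BMP pathways, which hold serum-grown ES cells undifferentiated, all had a peak with a median of 68.2 RPM. Of the 13, 2 (15.4%) were in the top 10% of genes. Socs3, a feedback inhibitor of LIF signalling, had 409 RPM, and Smad7, an inhibitory Smad, had 215 RPM. Bmpr1a (98.2 RPM) and Id2 (95.1 RPM) followed, and Jak1 (15.7 RPM) and Id3 (15.6 RPM) were lowest.

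Genes of the next stage of development were mixed. The 11 formative and primed genes all had a promoter peak, with a median of 28.25 RPM and 7.51 RPM per kb, below the 15.2 RPM per kb of all genes. Dnmt3a, a DNA methyltransferase (153 RPM), Zic5 (151 RPM), Zic2 (106 RPM) and Sox4 (101 RPM) were highest. Sox3 had 28 and 22 reads and Fgf5, a marker of the primed epiblast, 4 and 6. The median of this list was 34.0 RPM in R1 and 23.4 in R2, on either side of the median of all genes.

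Most regulators of other lineages had low promoter levels where they had a peak. Of 30 neural regulators 16 had a promoter peak (53.3%, near the 60.2% of all genes), none was in the top 10%, and the median was 4.59 RPM and 3.99 RPM per kb. Sox11 (502 and 404 reads), Pax6 (359 and 332), Sox1 (329 and 268) and Tubb3 were highest, and Ebf3 (4 and 8) was lowest. Sox11 (67.7 RPM), Pax6 (51.7 RPM) and Sox1 (44.6 RPM) lay above the median of all genes with a peak (31.2 RPM). The other neural regulators with a peak lay below it. Atoh1, Neurog1, Neurog2, Neurog3, Olig2, Dlx1 and Dlx2, all factors that direct neural fates, had no promoter peak. Of 20 mesoderm and endoderm regulators 6 had one, led by Hhex (188 and 205 reads), Tbx6 (152 and 174), Twist1 and Mesp1, with Gsc (13 and 16) and Nkx2-5 (3 and 4) lowest. Gata4, Gata6, Foxa2 and Sox17 had none. Of 10 trophoblast regulators 6 had one, the same share as over all genes, with a median of 2.44 RPM. Tfap2c (195 and 223 reads), Tead4 (89 and 101), Krt8 and Tfap2a led, with Krt18 (10 and 12) and Cdx2 (1 and 2) lowest. Of 39 Hox genes 10 had one. Hoxa5 had 102 and 107 reads, and Hoxb2 and Hoxa4 under 80 in each library, while Hoxa7 had 3 and 3 and Hoxc6 1 and 1.

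Neurod1, the gene whose transgene was not induced here, had 2 promoter peaks. The one at chr2:79454052-79456929 overlaps its exons and had 103 and 85 reads, and the one at chr2:79456988-79460121 had 70 and 60. Together they gave 23.8 RPM, a percentile of 40.3 among genes with a promoter peak, and 3.95 RPM per kb. The transgene holds the same coding sequence, so reads in the coding exon cannot be assigned to either copy. Hprt, a gene on the X used as a housekeeping reference, had no promoter peak, and the only peak within it held 3 and 6 reads (chrX:52997364-52997624).

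Genes of other cell types had a wide range. Of 20 fibroblast markers 10 had a promoter peak (60.2% over all genes), with a median of 7.73 RPM, of which Fn1, fibronectin, was far the highest (708 and 679 reads). Vim had 192 and 134, Loxl1 115 and 99, and Mmp2 99 and 68, and Pdgfrb (16 and 11) and Fbn1 (11 and 5) were lowest. Of 24 terminal genes of other tissues 4 had one, among them Syn1 (74 and 79 reads), Apoa1 (35 and 23) and Mbp (7 and 12). Of 1091 olfactory receptor genes 24 had one (2.20%), led by Olfr1056 (439 and 318 reads), Olfr641, Olfr1387 and Olfr1431.

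Housekeeping genes were lower than the pluripotency factors in total and higher per kb. Of 25 genes 24 had a promoter peak, with a median of 149 RPM and 28.0 RPM per kb. The promoter peaks of a member summed to a median of 4400 bp. Hspa8, a chaperone (227 RPM), Ywhaz, a 14-3-3 protein (225 RPM), Ppia (200.4 RPM) and Gapdh (189 RPM) were highest. Sdha (40.9 RPM) and B2m, the light chain of class I MHC (22 and 14 reads), were lowest. All 83 ribosomal protein genes had one, with a median of 94.7 RPM and 22.3 RPM per kb. Rpl13a (345 RPM) was high, and so was Rps19 (205 RPM). The paralogues Rpl39l (14 and 14 reads) and Rpl10l (7 and 15) were lowest. The 67 histone genes shared 39 peaks, with a median of 147 RPM. The peak of Hist1h1c, Hist1h2ab, Hist1h2bb, Hist1h3b and Hist1h3c was the strongest (2694 and 2394 reads), and Hist1h2aa and Hist1h2ba, which share their peak, were lowest (4.19 RPM).

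The genes that write, remove and read marks on H3K27 all had a promoter peak (14 of 14), with a median of 103 RPM and 26.0 RPM per kb. Brd2 (434 RPM) was highest, followed by Kdm6b, a demethylase of H3K27 (223 RPM), Ep300, which encodes p300 (176 RPM), and Eed, a Polycomb subunit (140 RPM). Crebbp, which encodes CBP, was lowest (23.1 RPM, 175 and 134 reads), next to Hdac3 (25.3 RPM).

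**Figure D3:**
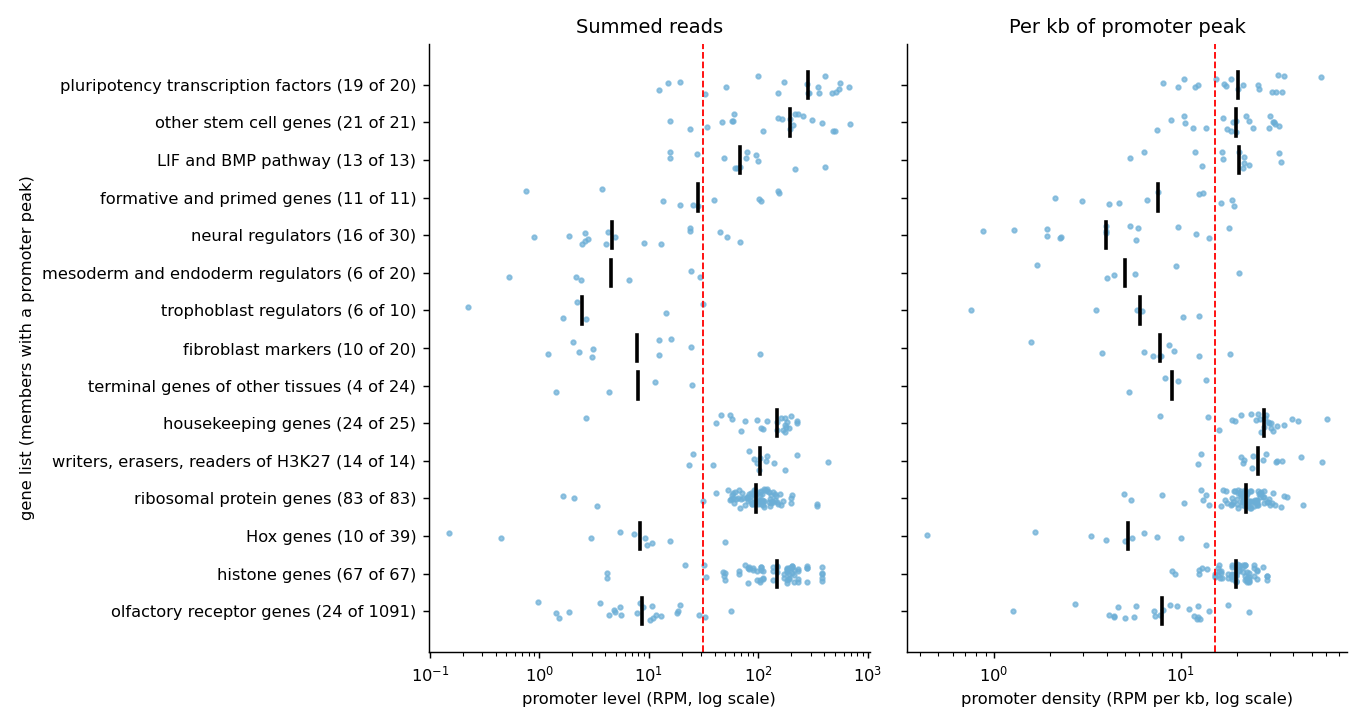
Promoter level (left, RPM) and promoter density (right, RPM per kb of promoter peak), both on log axes, for the members of 15 gene lists with a promoter peak, 1 point per gene, with black bars at the list median and a dashed red line at the median of all protein-coding genes with a promoter peak (31.2 RPM and 15.2 RPM per kb). The pluripotency factors lead on the left, and housekeeping genes lead on the right.

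At the other end, 37 peaks had no read in either library, and 1227 had at most 3 reads in each. A count of 0 allows up to 3 reads, which is 0.441 RPM in R1 and 0.456 in R2. These bounds cover counting error only. The widest of the 37 (456 bp) lies in an intron of Slc39a11, 17.9 kb from Sstr2, a somatostatin receptor gene (chr11:113601256-113601711). Among the next were peaks near Tmc3, Pou3f2 (a neural factor, 509.9 kb away), Adgrl4 and Zkscan6, at the promoter of Ndst4, in Adamtsl1 and Ccser1, and 4.39 kb from Insm1. Of the 37, 21 (56.8%) were intergenic, 12 (32.4%) in introns and 2 (5.41%) at promoters (Ndst4 and Rtraf), and none was multi-copy. Over all peaks 33.0% were intergenic, 27.4% in introns and 24.6% at promoters, and 12.8% were multi-copy or on contigs. The 1227 weak peaks had a median width of 297 bp, 45.8% GC and a CpG ratio (observed over expected) of 0.177. The whole set had 676 bp, 50.2% and 0.283. Of the 1227, 70 (5.71%, against 24.6% of all peaks) were at promoters, among them peaks at Tox3, Brsk2, Zbtb18, Meis1 and Wnt5a with 1 read in R1.

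Repeated sequence was spread over many peaks. There were 8492 multi-copy peaks (12.7%) with 8.54% of the reads in R1 and 9.03% in R2. Of these and other peaks on chromosomes, 3362 had words with over 1000 copies in the median. Their GC content was 61.0%, 98.7% of their bases were soft-masked as repeats, 73.1% were intergenic and 0.387% were at promoters. Their median density was 11.6 RPM per kb and their 90th percentile 16.7, against 6.35 and 17.3 for peaks with a median of 1 copy. Reads of such sequence can come from any copy, and its part in these values was not tested.

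Sequence features moved with density. In 15984 mostly single-copy promoter peaks, from the weakest to the strongest decile by density, the median CpG ratio went from 0.359 to 0.687 and the median width from 379 to 2707 bp. The GC content stayed between 53.1% and 56.4%, with a Spearman rho of -0.01 with density, against 0.334 for the CpG ratio. The distance from peak centre to start site went from 0.655 to 0.265 kb. Outside promoters (42307 peaks) the CpG ratio went only from 0.184 to 0.249, and the distance to the nearest start site from 47.5 to 19 kb. Peaks share base composition with their neighbours and are not independent, and no p is given.

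Short motifs were searched on both strands in the central 500 bp. GGGGCGGGG, bound by SP factors, was in 6.11% of all peaks. It was in 8.51% of the weakest and 21.6% of the strongest decile of promoter peaks. For CCGGAAGT, bound by ETS factors (1.75% of all peaks), the shares were 0.751% and 6.45%, and for GCATGCGC, bound by NRF1 (1.83%), 1.00% and 4.19%. TGAGTCA, bound by AP-1 (8.65%), went the other way, from 7.01% to 3.63%, and so did the octamer ATGCAAAT (2.25%), from 3.00% to 0.688%. These deciles also differ in width, and the window reaches past the narrower peaks. Per Mb of whole promoter peaks the differences were smaller for SP (203 to 294), AP-1 (159 to 138) and the octamer (64.2 to 38.5). The octamer was already at 36.3 in the middle deciles. ETS still rose steeply, from 16.9 to 63.4, and NRF1 from 19.15 to 68.95. Outside promoters, GGGTGTGG, of the KLF kind (5.46% of all peaks), went from 3.59% to 7.49%, and TCAAGGTCA, the ESRRB motif (1.64%), from 1.47% to 2.18%. Over whole peaks outside promoters the ESRRB motif occurred 42.6 times per Mb and the KLF motif 130 times, against 21.8 and 62.5 over the genome. The octamer occurred 58.3 times per Mb there, against 91.3 over the genome. Base composition was not matched.

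**Figure D4:**
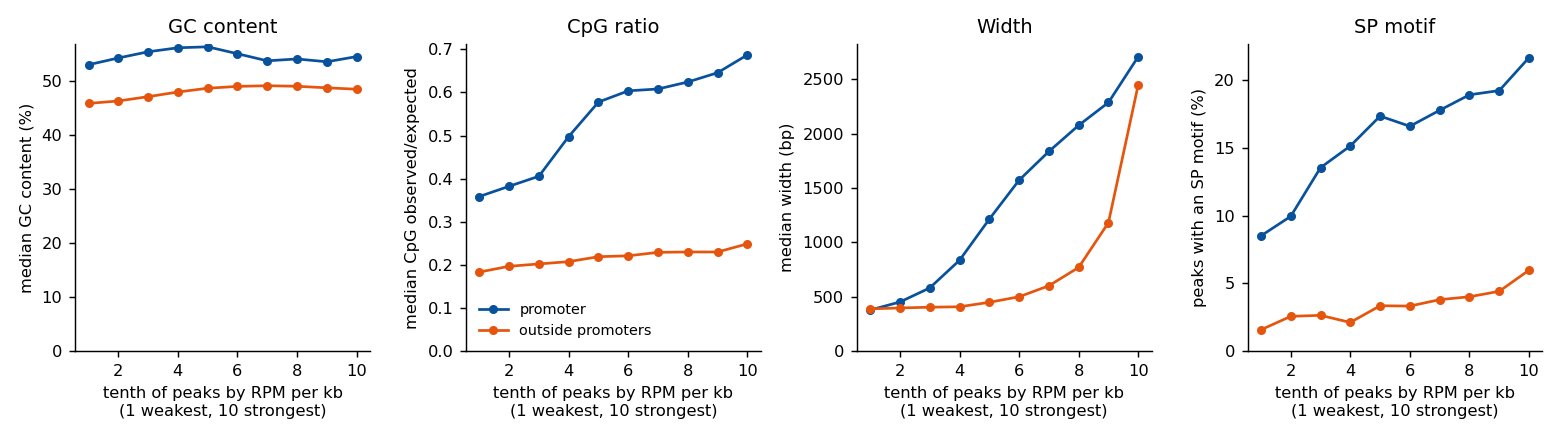
Median GC content (%), CpG observed over expected ratio, width (bp) and share of peaks with an SP motif (%) on the y axes, for deciles of mostly single-copy peaks by RPM per kb (x axis), at promoters and outside them. The CpG ratio and the SP share climb at promoters while GC content stays near 55%, and outside promoters the ratio stays under 0.25.

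The 2 libraries ranked peaks alike. Across the 66841 peaks, on the log2 scale of scaled counts plus 8, Pearson's r was 0.978, and Spearman's rho was 0.954. Between R1 and R2 75.4% of peaks lay within 1.5-fold and 90.1% within 2-fold. This share went up with depth: it was 26.3% within 1.5-fold for peaks of at most 3 reads on average and 99.9% for peaks of 300 to 1000 reads. Of the 100 strongest peaks of each library 91 were shared, and of the 6684 strongest 6225 were. By density, 87 and 5745 were shared. Beyond counting error, the coefficient of variation between the libraries was 5.97% for peaks of over 1000 reads, 9.30% for 100 to 300 reads and 16.25% for 10 to 30 reads, where counting alone gave 24.6%.

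The ratio of the libraries followed GC content. Among peaks with at least 100 reads on average, with 3097 in each GC quintile, the median log2 ratio of R1 to R2 was 0.13 in the GC quintile with the lowest values (up to 46.3%) and -0.15 in the quintile with the highest (from 58.0%). R1 was the higher in 74.2% of the first and 25.4% of the last. Of promoter peaks 42.6% were higher in R1, and of intron peaks 60.8%, and multi-copy peaks had a median of -0.17. The part of GC content in other values was not tested. Of 40090 peaks with at least 20 reads on average, 0.998% were over 2-fold higher in R1 and 0.419% in R2.

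The extremes among 24199 peaks with at least 50 reads on average were mostly intergenic, against 33.0% of all 66841 peaks. The peak most in favour of R1 was 70248 bp from Pi15 (chr1:17530591-17532716), with 81 and 26 reads, a ratio of scaled counts of 3.01 (95% exact interval 1.92 to 4.88, counting error only). It was followed by peaks nearest to Alg10b (73 and 29 reads), Trdn, Zfp36l1 and Mcph1. In favour of R2 the first was a peak 12167 bp from Dll4, a Notch ligand gene (chr2:119337596-119338306), with 33 and 77 reads, a ratio of R2 to R1 of 2.41 (1.59 to 3.75). Peaks nearest to Atp2b1, Adcyap1 and Kcnb2 came next, each with a median of over 1000 copies, and then the promoter peak of Kbtbd6 (35 and 77 reads). By the 50% rule the peaks near Pi15 (47.6% of words occurring once) and at Kbtbd6 (42.9%) were multi-copy too. The GC content of the 5 peaks high in R1 was 32.9% to 47.5%, and of the 5 high in R2 55.1% to 67.65%. These peaks were picked for their ratio, and the intervals take no account of that.

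**Figure D5:**
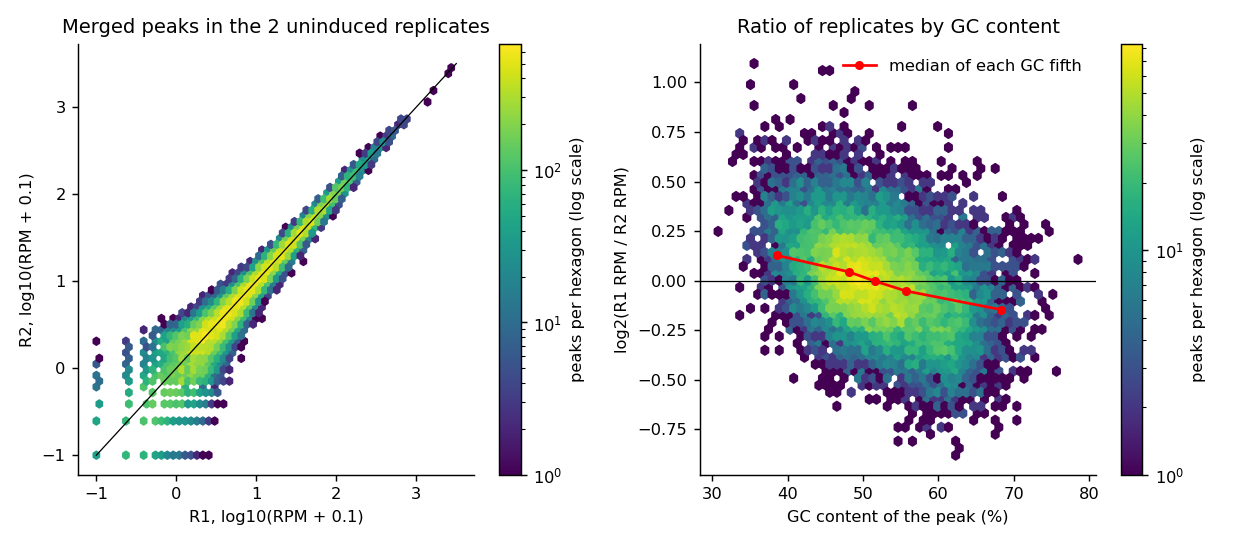
Left, log10(RPM + 0.1) of each merged peak in R1 (x axis) and R2 (y axis) with the line of equality. Right, log2 ratio of R1 to R2 (y axis) against GC content (x axis, %) for peaks with at least 100 reads on average, with red points at the median of each GC quintile, drawn midway in its range. Colours count peaks per hexagon on a log scale. The cloud narrows with depth on the left, and the medians go from 0.13 to -0.15 on the right.

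By chromosome, autosomes held between 272 RPM per Mb (chromosome 14) and 697 (chromosome 11). The X held 135 RPM per Mb, of which 17.7% lay in the 11 peaks at its end, and the Y 61.2, of which 43.8% lay in 1 peak. The ratio of R1 to R2 per chromosome lay between 0.988 and 1.03. Copies of the X and gene density were not accounted for.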

How the data were processed

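H3K27ac ChIP-seq libraries were made from A2Lox mouse ES cells at 0 h (2 replicates, R1 and R2). The authors mapped their reads by local Bowtie2 alignment on mm10, used SAMtools 0.1.19, called peaks with MACS2 against Input, merged peaks over all samples and replicates, and deposited raw read counts per merged peak, obtained with QuasR. Input and the induced libraries were not used here.

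Counts were divided by the library's total over merged peaks (RPM) and by width in kb. R1 had 6797811 and R2 6572611 reads in peaks, where 1 read is 0.147 and 0.152 RPM. Peaks were annotated with GENCODE M21, and promoters were taken as 2 kb either side of protein-coding start sites. Words of 31 bases, sampled every 10 bases, were counted in GRCm38. Peaks at most 10 kb apart were joined into domains. Promoter and microRNA sequences are from RefSeq tables for GRCm38. Python 3.11.15, pandas 2.3.3 and scipy 1.17.1 were used, with edgeR 4.0.16 and DESeq2 1.42.0 (R 4.3.3) for alternative scaling factors only. The estimate of variation beyond counting error was tested on simulated data for peaks with at least 100 reads on average. It was not tested at lower depth.

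Named loci are the 10 strongest, densest, widest, strongest non-promoter and widest unread peaks, the 10 strongest domains, the 5 peaks most different between libraries in each direction, the 4 highest and 2 lowest members of each gene list, Neurod1, Hprt and the Mir290 cluster. Other loci and genes, among them the further single-copy and promoter peaks, the weak promoters, the genes without a peak and the Mir302 cluster, were named after their values were seen. Members and gene lists were chosen with earlier results of these data known. Leaving out multi-copy and contig peaks was chosen after seeing the data. A few of the items this rule names are not reported here.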

Additional observations from a re-analysis of the deposited data

How the results depend on the processing

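The share of reads in the strongest 10% of peaks (57.8%) became 51.98% with at least 10 reads in each library, 50.17% when ranked per kb, and 57.39% to 58.41% with 1 library left out. Pearson's r of the libraries (0.978) became 0.9621 with a pseudocount of 1, 0.9803 with at least 10 reads, 0.877 per kb and 0.9796 without multi-copy and contig peaks. The share of peaks within 1.5-fold (75.4%) became 87.17% with at least 10 reads and 74.85% without multi-copy and contig peaks. The promoter share of reads (52.9%) became 51.4% with 1 kb windows, 48.93% for peaks over the start site itself, 56.74% without multi-copy and contig peaks, and 52.15% to 53.73% with 1 library left out. The Spearman rho of width and level (0.908) was 0.8895 to 0.9088 in single libraries. That of GC content and density over all peaks (0.344) was 0.4433 for the central 500 bp and 0.2951 to 0.3606 in single libraries. The number of domains with 10% of the reads (94) was 149 when peaks were joined at 3000 bp and 93 to 96 in single libraries. The median of the pluripotency factors (281.5 RPM) was 276.5 with 1 kb windows and with only the peak with the most reads, and 283.2 to 286.8 in single libraries. The cause of these shifts was not tested, beyond the change in the peaks or libraries used. Over the other gene lists and settings the values stayed on the same side of the median of all genes, except the formative genes, which lay above it in R1. No paired analysis was possible because only 1 group was described and no test was run. Both libraries are shallow for weak peaks, with a median of 29 and 27 reads.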
